A study of Homo sapiens with 12 samples.

Results

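The transcript clusters of human chromosome 9 were examined in A375, an established human melanoma cell line. A transcript cluster is the unit in which the array summarises its probes, a single locus of transcription, and its identifier starts with TC and the number of its chromosome. All 1729 clusters with identifiers that start with TC09 were taken, of 65535 clusters in the deposited table, which ends within this chromosome. Of these, 416 carried a single gene symbol, 11 carried several and were left unnamed, and 1302 had no entry in the annotation used. All 224 named clusters with a RefSeq gene identifier lay on chromosome 9 in RefSeq. Of 141 named clusters with a strand, 140 lay on the forward strand, so the values speak of a part of the chromosome's genes.

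The cells were compared in 3 treatments. They received interferon-gamma (IFNg) for 24 h together with silvestrol for 2 h, IFNg alone for 24 h, or DMSO for 2 h. Each treatment was measured in polysomal RNA, the RNA bound to several ribosomes, and in total RNA, with 2 arrays for each of the 6 groups. All groups are cultures of a single cell line, no group received silvestrol without IFNg, and the DMSO samples differ from the IFNg samples in hours of treatment. The labels do not say whether replicates came from separate cultures. A p-value here therefore sets a difference between groups against the spread of these particular arrays, which may be technical only.

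IFNg binds a receptor whose associated kinases include JAK2. Promoters of genes that respond to it often hold short gamma-activated sites and sites for factors of the IRF family. JAK2 lies on the short arm of chromosome 9, as do CD274 and PDCD1LG2, neighbouring genes for PD-L1 and PD-L2, ligands through which tumour cells restrain T cells that carry the receptor PD-1. Silvestrol, a plant compound, blocks the RNA helicase eIF4A, which opens the leaders of mRNAs for loading of ribosomes.

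The CD274 promoter is shown because CD274 had the largest change of the chromosome 9 clusters in each IFNg comparison with DMSO. The 250 bases before its start in RefSeq (GRCh38.p14, chr9:5450292-5450541, forward strand) are given 5′ to 3′. Capitals mark matches to a gamma-activated site, TTCNNNGAA, which reads the same on both strands, and to an IRF site, GAAA and GAAA with any 2 bases between them, or TTTC and TTTC with any 2 bases between them on the other strand.
CD274: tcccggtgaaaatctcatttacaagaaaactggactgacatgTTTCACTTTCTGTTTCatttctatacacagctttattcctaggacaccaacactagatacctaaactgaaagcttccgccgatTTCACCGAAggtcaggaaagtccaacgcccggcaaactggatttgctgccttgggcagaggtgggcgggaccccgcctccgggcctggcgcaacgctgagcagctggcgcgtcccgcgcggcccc
The single gamma-activated match lay 125 to 117 bases before the start. The 2 IRF matches overlap each other and lay 208 to 199 and 202 to 193 bases before it. Among 35116 promoter windows of the same length in RefSeq, 6.57% held a gamma-activated match and 3.02% held an IRF match. The windows of JAK2 and of VLDLR, described further on, held neither motif. The window of PDCD1LG2, which like CD274 was called higher with IFNg, was not examined. These windows therefore do not relate the motifs to a rise with IFNg. A match says only that these letters stand there, and binding was not measured.

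Most chromosome 9 clusters were dim. Their median mean log2 intensity over the 12 arrays was 4.13, and 73.8% lay below 5. Bright clusters, those whose log2 intensity averaged 7 or more, were 155, or 8.96%, against 11.9% of the whole table. Of the bright clusters, 95 carried a name, among them 62 protein-coding genes and 20 pseudogenes. No detection call accompanies the values, so the level of a dim cluster cannot be told apart from background.

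The brightest bright cluster, the unnamed TC0900007033.hg.1, averaged 18.53 on the log2 scale. ANXA1, the gene for annexin A1, a phospholipid-binding protein that dampens inflammation, averaged 17.42. The pseudogenes ANXA2P2 and RPS26P3 averaged 15.85 and 15.63, and since processed copies share sequence with their parent genes, such signals may include RNA of ANXA2 and RPS26. ANP32B, a histone chaperone, averaged 15.23, DNAJA1, a co-chaperone of HSP70, 15.05, and PSAT1, an enzyme of serine synthesis, 14.53. CTSL, the lysosomal protease cathepsin L, averaged 13.45. None of DNAJA1, PSAT1 and CTSL was called between treatments or between fractions. Levels of different clusters come from different probes and are not compared further.

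MLANA and TYRP1, markers of the melanocyte lineage, averaged 5.89 and 5.35 and were not bright. The 14 named microRNA clusters averaged between 2.51 and 7.80, and limma called none of them in any comparison. RNA from cultures was measured in bulk, so fewer cells with a transcript and less of it per cell cannot be told apart.

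The polysomal IFNg arrays stood apart in brightness. Their mean intensity over all clusters was 1237 and 1347, while all other arrays had 1469 to 1720. Bright chromosome 9 clusters had a median log2 intensity of 8.85 and 8.74 there. It was 9.13 and 9.22 on the polysomal arrays with IFNg and silvestrol, 9.25 and 9.39 on the polysomal DMSO arrays, and 9.38 to 9.90 on the arrays of total RNA. Replicate arrays correlated over the 1729 clusters with r between 0.964 and 0.976.

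IFNg against DMSO asks which transcripts changed in abundance and on ribosomes after interferon. A cluster was called where limma's p-value, adjusted over all 65535 clusters by the Benjamini-Hochberg method, lay below 0.05. In polysomal RNA, 6 chromosome 9 clusters were higher and 20 lower with IFNg, against 0.478% and 1.93% of the whole table, and 3 and 16 of them were bright, where the table had 2.13% and 13.4%. In total RNA, 5 were higher and none lower, against 0.287% and 0.0244% of the whole table. Of these, 4 were bright, or 2.58% of bright chromosome 9 clusters, and among all bright clusters 1.83% were higher and 0.102% lower. At an unadjusted p below 0.05, 57 chromosome 9 clusters were higher and 49 lower in total RNA. Such a threshold also lets through clusters that did not change, and the share of the whole table passing it was not counted. Unadjusted counts, here and further on, are therefore not read as changes.

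**Figure D1:**
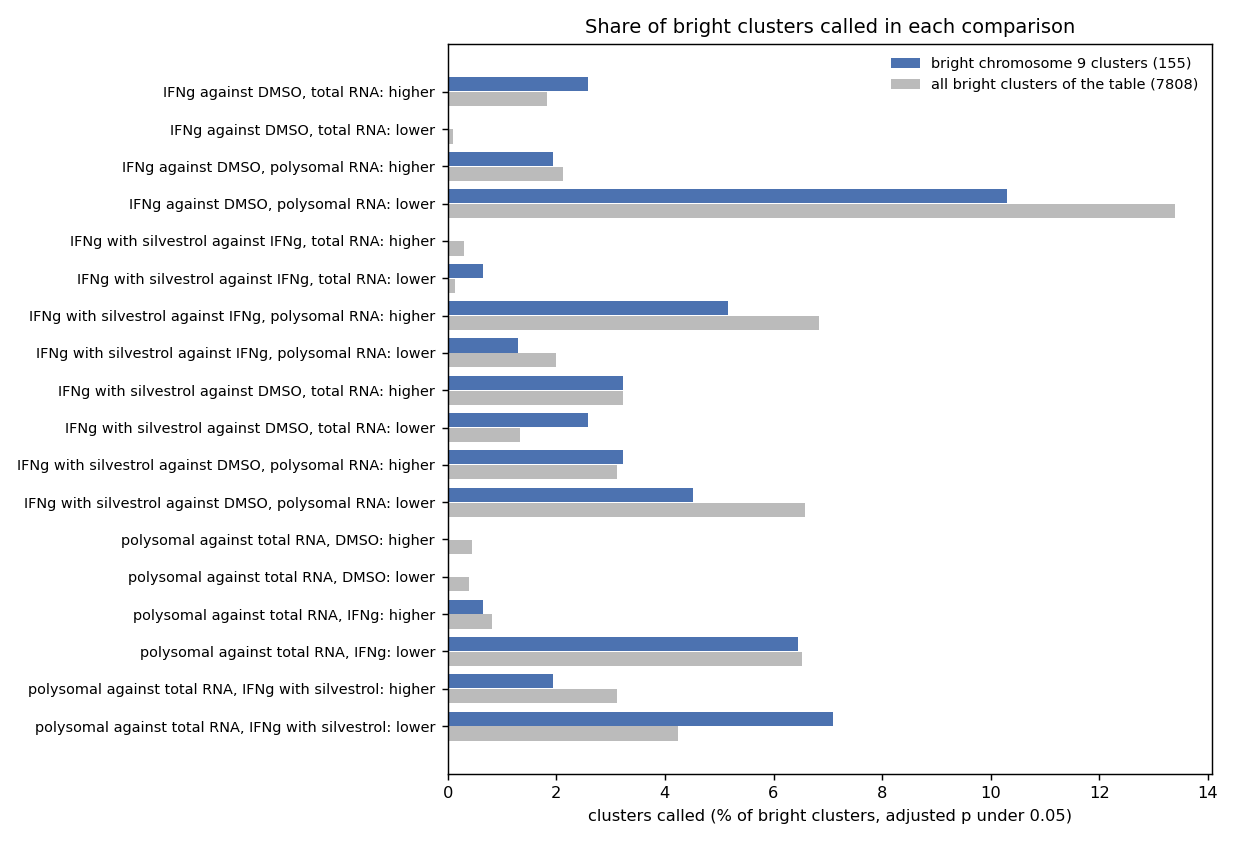
Share of bright clusters called higher or lower in each comparison, in percent, for the 155 bright chromosome 9 clusters (blue) and the 7808 bright clusters of the table (grey). The longest bars belong to clusters lower with IFNg in polysomal RNA, 10.3% on chromosome 9 and 13.4% in the table.

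CD274, the gene for PD-L1, had the largest change in both fractions. In polysomal RNA its log2 intensity was 14.76 and 14.87 with IFNg and silvestrol, 13.90 and 13.17 with IFNg, and 7.17 and 7.37 with DMSO. In total RNA it was 14.43 and 14.18 with IFNg and silvestrol, 13.77 and 12.88 with IFNg, and 7.10 and 6.97 with DMSO. Every array with IFNg lay far above every DMSO array.

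With IFNg alone CD274 was 77.0-fold higher than with DMSO in polysomal RNA (log2 change 6.27, SE 0.33, limma adjusted p = 5.84e-07). In total RNA it was 78.1-fold higher (6.29, SE 0.33, adjusted p = 5.4e-07). The difference between these changes was -0.02 on the log2 scale (95% interval -1.02 to 0.98, adjusted p = 0.998). With IFNg and silvestrol it was 187-fold higher than with DMSO in polysomal RNA and 154-fold higher in total RNA (adjusted p = 9.04e-08 and 1.33e-07). All 4 calls held in every alternative fit and without each array.

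With silvestrol on top of IFNg the CD274 arrays read higher in both fractions, but the changes missed the threshold. The log2 change against IFNg alone was 1.28 in polysomal RNA (95% interval 0.57 to 1.99, adjusted p = 0.0863) and 0.98 in total RNA (0.27 to 1.69, adjusted p = 0.799). The groups did not overlap in either fraction. The polysomal and total changes differed by 0.30 (interval -0.70 to 1.30, adjusted p = 0.96).

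PDCD1LG2, the gene for PD-L2 and the next row of the table, was dimmer, with a mean of 6.48 and therefore just below the bound for a bright cluster. In polysomal RNA its log2 intensity was 6.87 and 7.57 with IFNg and silvestrol, 7.03 and 7.77 with IFNg, and 5.28 and 4.70 with DMSO. In total RNA it was 6.86 and 7.35 with IFNg and silvestrol, 7.53 and 7.84 with IFNg, and 4.28 and 4.67 with DMSO. No array with IFNg overlapped a DMSO array of the same fraction.

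The IFNg change of PDCD1LG2 was 2.41 in polysomal RNA (SE 0.35, limma adjusted p = 0.00347) and 3.21 in total RNA (SE 0.35, adjusted p = 0.000618). The polysomal call ended without polysomal DMSO replicate 2 (adjusted p = 0.0566), and the total call held without each array. With silvestrol added, PDCD1LG2 remained higher than with DMSO, by 2.24 in polysomal RNA (adjusted p = 0.00632) and 2.63 in total RNA (adjusted p = 0.00216). The polysomal one of these calls ended without polysomal DMSO replicate 2 (0.0965) and without polysomal replicate 2 of IFNg with silvestrol (0.0592). Against IFNg alone silvestrol changed it by -0.18 in polysomal RNA (interval -0.93 to 0.58) and -0.58 in total RNA (interval -1.34 to 0.17), neither called.

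JAK2, the receptor-associated kinase, lay 21 rows before CD274. In polysomal RNA its bright cluster measured 8.07 and 8.08 with IFNg and silvestrol, 8.33 and 8.47 with IFNg, and 7.52 and 6.95 with DMSO. In total RNA it measured 9.04 and 9.36 with IFNg and silvestrol, 8.51 and 9.01 with IFNg, and 8.03 and 7.31 with DMSO. All arrays with IFNg lay above the DMSO arrays of their fraction.

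The IFNg change of JAK2 was not called, at 1.16 in polysomal RNA (interval 0.49 to 1.83, adjusted p = 0.0788) and 1.09 in total RNA (interval 0.42 to 1.77, adjusted p = 0.367). With silvestrol and IFNg it passed against DMSO in total RNA alone, at 1.53 (SE 0.31, limma adjusted p = 0.0434). That call was lost in 7 of the 12 fits that leave out an array, with an adjusted p of 0.0643 without either polysomal IFNg array, 0.0676 without either polysomal array with silvestrol, 0.166 and 0.317 without total replicate 1 and 2 of IFNg with silvestrol, and 0.261 when replicate 2 of total DMSO was left out. A dim JAK2 cluster in the next row, with a mean of 5.39, changed by 0.16 in polysomal and 0.05 in total RNA, neither called.

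A list of 14 interferon and immune genes of chromosome 9, drawn up with results of these data known, had 5 genes among the clusters. CD274 and PDCD1LG2 rose with IFNg in both fractions and JAK2 passed in neither. IFNK, a type I interferon of skin, and IL33, an alarmin cytokine, averaged 2.93 and 5.23, and their IFNg changes ranged from -0.12 to 0.18 with none called.

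**Figure D2:**
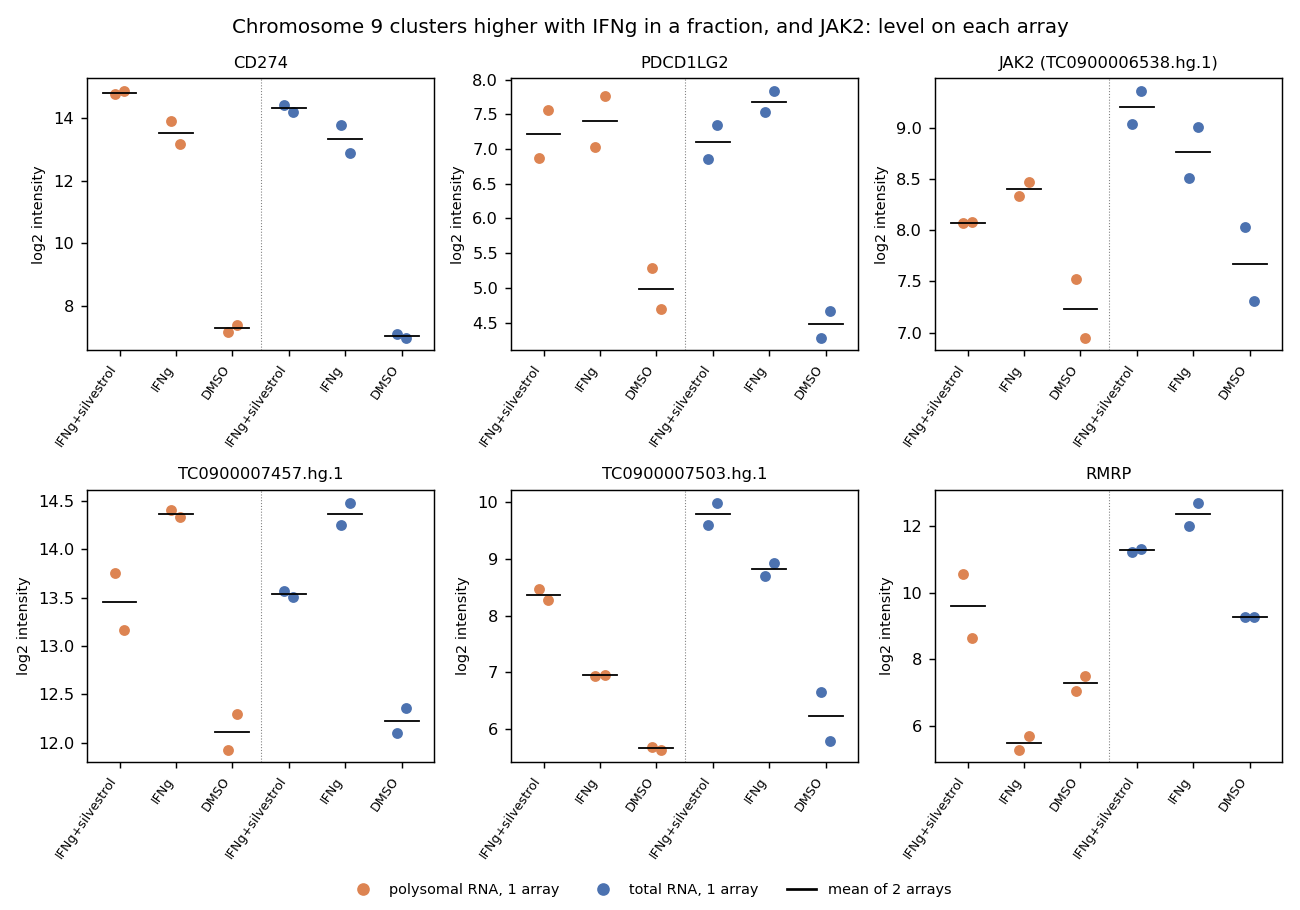
Log2 intensity on each array for CD274, PDCD1LG2, JAK2, TC0900007457.hg.1, TC0900007503.hg.1 and RMRP, with polysomal RNA (orange) left of total RNA (blue), and IFNg with silvestrol, IFNg and DMSO in this order within each. Points are arrays and lines the mean of 2 arrays, and the CD274 arrays with IFNg lie between 12.88 and 14.87, against 6.97 to 7.37 with DMSO.

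Rows that stand near each other in the table were then set beside these changes. Counting a cluster as raised where it was called higher with IFNg in either fraction, 7 chromosome 9 clusters were raised, at rows 127, 128, 152, 654, 805, 1014 and 1059 of the chromosome. CD274 and PDCD1LG2 were the single pair within 10 rows of each other, so 2 of 7, or 28.6%, lay near another. On chromosomes 1 to 8 the share was 27.7% of 372 raised clusters, and on chromosome 6 it was 60.5% of 76. Within 1 row the shares were 28.6% on chromosome 9 and 13.4% on chromosomes 1 to 8, and within 20 rows they were 28.6% and 36.6%. The order thus turned with the window, and with 7 clusters these shares are coarse.

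Around the pair, among the 10 rows on each side of it, limma called 0 of 20 in total RNA and 1 of 20 in polysomal RNA, the dim pseudogene HMGN2P31, which was lower with IFNg. The changes of the 20 rows ran from -1.82 to 1.25 in polysomal RNA with a median of -0.08, and from -0.61 to 1.92 in total RNA with a median of -0.02. Both extremes of opposite sign, -1.82 and 1.92, came from the unnamed TC0900006557.hg.1. RIC1, the next coding gene in the order of RefSeq, had a mean of 7.25 and changed by -0.08 in polysomal and -0.61 in total RNA, neither called. Between CD274 and PDCD1LG2 RefSeq places INCR1, a long noncoding RNA, for which no cluster was named here. Of the 20 rows between JAK2 and CD274, 1 was called in polysomal RNA, HMGN2P31 again, and 0 in total RNA.

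**Figure D3:**
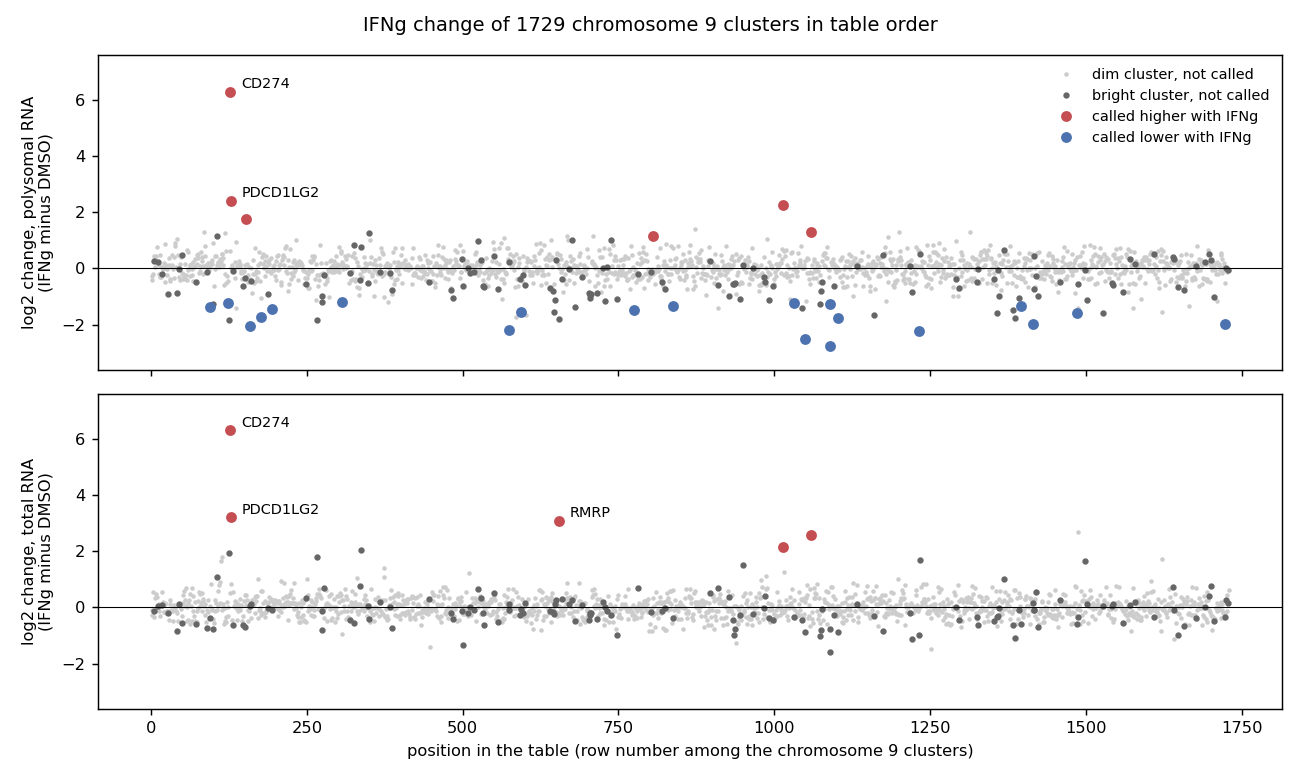
Log2 change with IFNg against DMSO of all 1729 chromosome 9 clusters, in the order of the table, for polysomal RNA (top) and total RNA (bottom). Red points are called higher and blue points lower, and dark grey points are bright clusters that were not called. CD274 and PDCD1LG2 stand side by side, while the 20 polysomal falls are spread along the axis.

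TC0900007457.hg.1, a raised cluster with a mean of 13.35, carries several gene symbols and is therefore not named. In polysomal RNA it measured 13.75 and 13.16 with IFNg and silvestrol, 14.40 and 14.33 with IFNg, and 11.93 and 12.30 with DMSO. Total RNA gave 13.57 and 13.51 with IFNg and silvestrol, 14.25 and 14.48 with IFNg, and 12.10 and 12.36 with DMSO. In both fractions it was highest with IFNg alone, and the 3 treatments did not overlap.

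The IFNg change of TC0900007457.hg.1 was 2.25 in polysomal RNA (SE 0.27, limma adjusted p = 0.00129) and 2.14 in total RNA (SE 0.27, adjusted p = 0.00224), and both calls held without each array. With silvestrol it was 1.34 above DMSO in polysomal RNA (adjusted p = 0.0272) and 1.31 above it in total RNA (adjusted p = 0.0486). The polysomal call ended without either polysomal DMSO array (0.183 and 0.0987) and without polysomal replicate 1 of IFNg with silvestrol (0.25). The total call held in 2 of 12 fits that leave out an array, those without polysomal replicate 1 or 2 of IFNg with silvestrol, and its adjusted p lay between 0.0595 and 0.327 in the other 10. Against IFNg alone silvestrol changed it by -0.91 in polysomal RNA (interval -1.50 to -0.32) and -0.82 in total RNA (interval -1.41 to -0.24), neither called.

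TC0900007503.hg.1, an unnamed cluster with a mean of 7.64, was higher still with silvestrol. Polysomal RNA gave 8.46 and 8.27 with IFNg and silvestrol, 6.94 and 6.95 with IFNg, and 5.69 and 5.64 with DMSO. The total RNA arrays read 9.60 and 9.99 with IFNg and silvestrol, 8.70 and 8.93 with IFNg, and 6.65 and 5.80 with DMSO. The treatments followed this order in both fractions without overlap.

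IFNg raised TC0900007503.hg.1 by 1.28 in polysomal RNA (SE 0.29, limma adjusted p = 0.0405) and by 2.59 in total RNA (SE 0.29, adjusted p = 0.000872), where the call held without each array. The polysomal call held only in the fits without a total DMSO array, and its adjusted p lay between 0.0516 and 0.23 in the other 10 fits that leave out an array. With silvestrol the cluster was 2.70 above DMSO in polysomal RNA (adjusted p = 0.000459) and 3.57 above it in total RNA (adjusted p = 3.83e-05), and both held throughout. Against IFNg alone silvestrol raised it by 1.42 in polysomal RNA (adjusted p = 0.0329), which ended without polysomal IFNg replicate 1 or 2 (0.122 and 0.164) and without polysomal replicate 1 or 2 of IFNg with silvestrol (0.227 and 0.0982).

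A pair of dim clusters was also called higher with IFNg in polysomal RNA. Their DMSO values lie among levels that cannot be told apart from background, so the sizes of these changes are not firm. TC0900006584.hg.1 measured 4.32 and 5.39 with IFNg, against 3.25 and 2.98 with DMSO (log2 change 1.74, limma adjusted p = 0.0356). SNX18P8, a pseudogene of a sorting nexin, measured 5.82 and 6.30 with IFNg, against 4.93 and 4.86 with DMSO (1.16, adjusted p = 0.0378). TC0900006584.hg.1 was not called without polysomal DMSO replicate 1 or 2 (0.0999 and 0.244) or polysomal IFNg replicate 2 (0.273). SNX18P8 was not called without those 3 arrays (0.13, 0.228 and 0.251) or without either polysomal array with silvestrol (0.0514).

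The cluster named RMRP, for the RNA of the ribonuclease MRP, which processes ribosomal RNA and is not translated, moved in opposite directions in the fractions. Its strand was not among those given, so whether it detects RMRP itself could not be checked. The polysomal arrays read 10.55 and 8.63 with IFNg and silvestrol, 5.29 and 5.69 with IFNg, and 7.06 and 7.50 with DMSO. In total RNA it measured 11.22 and 11.31 with IFNg and silvestrol, 12 and 12.70 with IFNg, and 9.26 and 9.27 with DMSO. With IFNg it was highest of the treatments in total RNA and lowest in polysomal RNA, with no overlap.

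The IFNg change of RMRP was -1.79 in polysomal RNA (interval -2.83 to -0.76, limma adjusted p = 0.0772, not called) and 3.09 in total RNA (SE 0.48, adjusted p = 0.0118). Dropping total IFNg replicate 2 ended the call in total RNA (0.14), as did dropping total DMSO replicate 1 or 2 (0.139 and 0.0801). The polysomal minus the total change was -4.88 (SE 0.68, adjusted p = 0.0105), which ended without total DMSO replicate 1 (0.0547) and polysomal DMSO replicate 2 (0.082). Silvestrol on top of IFNg raised RMRP by 4.10 in polysomal RNA (SE 0.48, adjusted p = 0.00171), a call that held in every alternative, and changed it by -1.09 in total RNA (interval -2.12 to -0.05, not called). The polysomal silvestrol replicates lay far apart.

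The difference between these 2 silvestrol changes of RMRP was 5.19 (SE 0.68, limma adjusted p = 0.0262). It passed in 3 of the 12 fits that leave out an array, those without polysomal DMSO replicate 1 or 2 or polysomal replicate 2 of IFNg with silvestrol. In the other 9 its adjusted p was 0.0543 to 0.212, highest without total replicate 1 of IFNg with silvestrol. Against DMSO, IFNg with silvestrol raised RMRP by 2.31 in polysomal RNA (adjusted p = 0.031), which became 1.35 without polysomal replicate 1 of IFNg with silvestrol (adjusted p = 0.195). That call also ended without polysomal DMSO replicate 1 or 2 (0.179 and 0.134) or either total array with silvestrol (0.0539). No strand was given for RMRP or for the probes, while 140 of the 141 named clusters with a strand lay on the forward strand. Which strand of this locus the cluster reads is therefore unknown, and the values may not be those of RMRP.

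Of the 1729 clusters, RMRP was the single one called for the difference between fractions in either change. The whole table had 0.16% lower and 0.0107% higher for the IFNg change, and 0% lower and 0.0183% higher for the silvestrol change. Among its bright clusters these were 0.935% and 0.0384%, and 0% and 0.141%. At an unadjusted p below 0.05, 66 chromosome 9 clusters were lower and 39 higher for the IFNg change, and 39 and 66 for the silvestrol change. Both differences share the IFNg arrays.

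**Figure D4:**
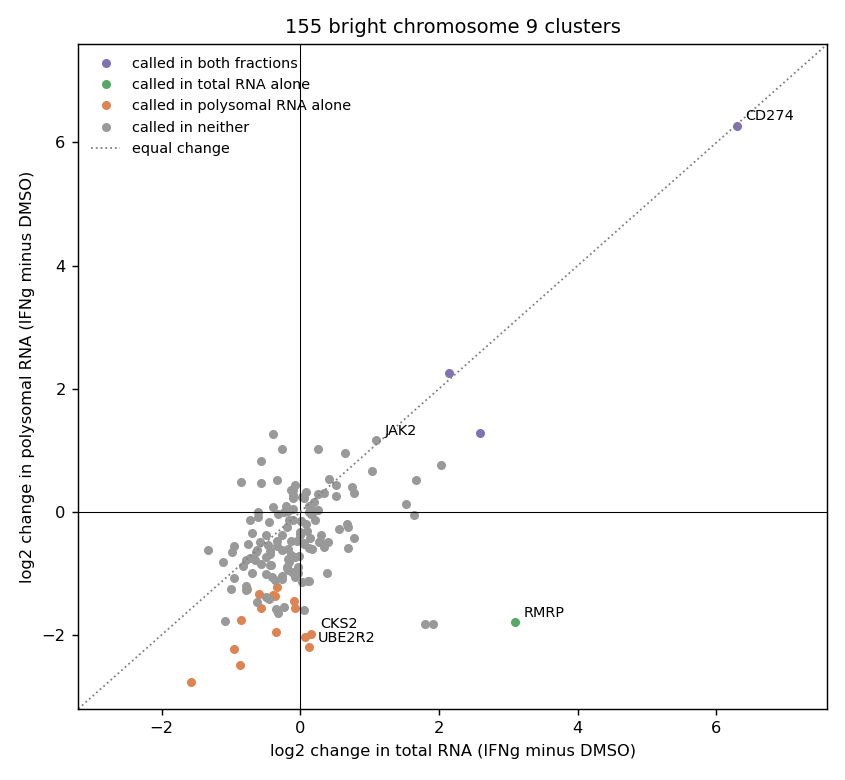
Log2 change with IFNg against DMSO of the 155 bright chromosome 9 clusters in polysomal RNA (vertical axis) against total RNA (horizontal axis), coloured by where a cluster was called. CD274 lies on the line of equal change at 6.27 and 6.29, RMRP at -1.79 and 3.09, and most other clusters lie below 0 on the vertical axis.

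The clusters lower with IFNg were found in polysomal RNA. Of the 155 bright clusters, 116 lay below 0 there and the median change was -0.53, beside -0.44 for all bright clusters of the table. In total RNA the medians were -0.14 and -0.10. Of the 20 clusters called lower, 15 carried a name and 9 were protein-coding. In total RNA limma called none of the 20, 16 of which lay below 0, and their median was -0.38. Of the 155 bright clusters, 95 lay below 0 in total RNA. The difference between fractions was called for 0 of the 20.

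The count of calls in polysomal RNA changed when single arrays were left out. Such a fit leaves 1 array in a group and is less precise. A call that ends in it is therefore not shown to rest on the array left out. Dropping polysomal DMSO replicate 1 left 4 higher and 13 lower, and dropping replicate 2 of that group left 2 and 2. Dropping polysomal IFNg replicate 1 left 9 and 9, and dropping its replicate 2 left 3 and 3. With quantile normalization, which evens out the brightness of arrays, 7 were higher and 7 lower. Among the named falls, it ended the calls of CDC37L1, ANP32B, FAM27E2, CHCHD2P9, CKS2, RPS26P3, RPL23AP57, C9orf85, UBAP1, SPIN1 and ZNG1C (limma adjusted p = 0.0675 to 0.244). The calls of UBE2R2, SKP1P3, HMGN2P31 and CNTLN held.

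Among named clusters with known roles, UBE2R2, a ubiquitin-conjugating enzyme of SCF ligases, fell most of the coding genes. In polysomal RNA it measured 10.21 and 10.20 with IFNg and silvestrol, 9.37 and 8.38 with IFNg, and 10.82 and 11.33 with DMSO. Total RNA gave 10.08 and 10.31, 9.88 and 10.49, and 10.21 and 9.91 in the same order of treatments. The polysomal IFNg arrays lay below all others, while the arrays of total RNA overlapped. The polysomal IFNg change was -2.20 (SE 0.34, limma adjusted p = 0.00524). It ended without polysomal DMSO replicate 2 (0.0789) and polysomal IFNg replicate 2 (0.056).

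CKS2, a subunit of cyclin-dependent kinase complexes, measured 14.03 and 13.62 in polysomal RNA with IFNg and silvestrol, 11.57 and 11.76 with IFNg, and 13.46 and 13.83 with DMSO. The total RNA arrays read 13.46 and 13.62 with IFNg and silvestrol, 12.44 and 13.79 with IFNg, and 13.49 and 12.43 with DMSO. The polysomal IFNg arrays were low and the silvestrol and DMSO arrays overlapped. Its polysomal change was -1.98 with IFNg against DMSO (SE 0.42, limma adjusted p = 0.0277) and 2.16 with silvestrol against IFNg alone (SE 0.42, adjusted p = 0.0259). These comparisons share the polysomal IFNg arrays. The IFNg call ended without polysomal DMSO replicate 1 or 2 (0.0741 and 0.224) and without polysomal IFNg replicate 1 or 2 (0.118 each). The silvestrol call ended without the same IFNg arrays (0.12 and 0.127) and without either polysomal array with silvestrol (0.208 and 0.0718).

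ANP32B, the histone chaperone, was low on polysomes with and without silvestrol. Polysomal RNA gave 13.43 and 14.61 with IFNg and silvestrol, 14.83 and 13.80 with IFNg, and 16.19 and 16.36 with DMSO, and in total RNA every array lay between 15.11 and 15.89. Its polysomal change against DMSO was -2.26 with IFNg and silvestrol (SE 0.41, limma adjusted p = 0.0155) and -1.96 with IFNg (SE 0.41, adjusted p = 0.0241). Both calls ended without polysomal DMSO replicate 1 (0.0679 and 0.0842) or replicate 2 (0.138 and 0.187). The first ended also without polysomal replicate 1 of IFNg with silvestrol (0.16), and the second without polysomal IFNg replicate 2 (0.206).

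SPIN1, a reader of histone methylation, was also low on polysomes in both treatments, at 8.82 and 8.91 with IFNg and silvestrol, 8.85 and 8.92 with IFNg, and 10.09 and 10.35 with DMSO in polysomal RNA. Its changes against DMSO were -1.35 (limma adjusted p = 0.027) and -1.34 (adjusted p = 0.0219), and each of these calls ended without any of the 4 arrays it compares, with an adjusted p of 0.0597 to 0.23. ANP32B and SPIN1 were the 2 of the 20 falls that were also called lower with IFNg and silvestrol. The other 18 were not called there, and the median of the 20 was -0.54.

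Among the other named falls with IFNg in polysomal RNA were those of CHCHD2P9 (-2.23), RPL23AP57 (-2.04), C9orf85 (-1.76) and CDC37L1 (-1.37). CHCHD2P9 and RPL23AP57 are processed pseudogenes of a mitochondrial protein and a ribosomal protein and may also detect their parent mRNAs, and CDC37L1 is related to the HSP90 co-chaperone CDC37. CHCHD2P9 measured 10.89 and 10.35 with IFNg, against 13.09 and 12.60 with DMSO (limma adjusted p = 0.0131). It was not called without polysomal DMSO replicate 1 or 2 (0.0904 and 0.0667) or polysomal IFNg replicate 2 (0.118). RPL23AP57 measured 11.70 and 11.66 with IFNg, against 13.24 and 14.19 with DMSO (adjusted p = 0.038). It was not called without polysomal DMSO replicate 2 (0.326) or polysomal IFNg replicate 1 or 2 (0.123 and 0.176). C9orf85 and CDC37L1 (adjusted p = 0.0331 and 0.037) held in 6 of 12 fits that leave out an array each, and were not called without any of the 4 arrays compared (0.0875 to 0.208 and 0.0831 to 0.25). The remaining named falls were those of UBAP1 (-1.56), SKP1P3 (-1.46), RPS26P3 (-1.45), FAM27E2 (-1.35), ZNG1C (-1.22), HMGN2P31 (-1.21) and CNTLN (-1.20), and each of these calls ended without polysomal DMSO replicate 2 (0.144 to 0.337) and also without polysomal IFNg replicate 2 (0.0674 to 0.314).

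The largest falls belonged to unnamed clusters. TC0900007534.hg.1 measured 5.05 and 5.11 with IFNg in polysomal RNA, against 7.29 and 8.39 with DMSO (log2 change -2.76, limma adjusted p = 0.00396), and was not called without polysomal DMSO replicate 2 (0.0595). TC0900007494.hg.1 measured 7.97 and 7.83 with IFNg, against 10.44 and 10.35 with DMSO (-2.49, adjusted p = 0.0025). It was the single fall among the 20 whose call held in every alternative and without each array.

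**Figure D5:**
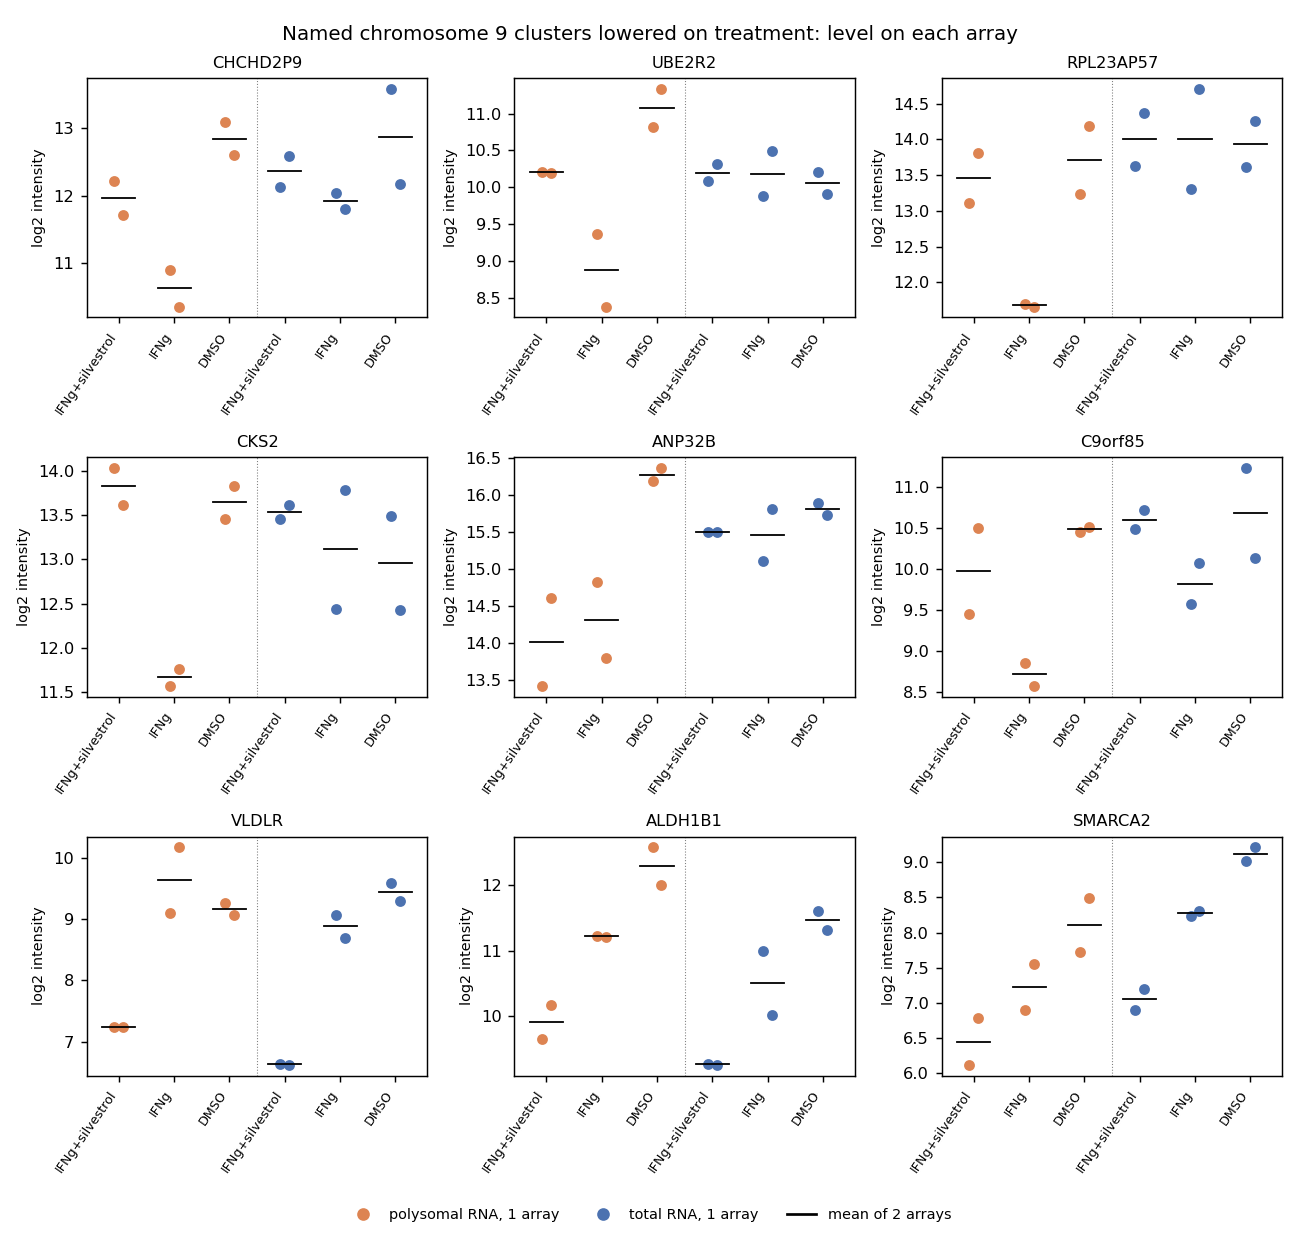
Log2 intensity on each array for 9 named clusters lower on treatment, with polysomal RNA (orange) left of total RNA (blue), and IFNg with silvestrol, IFNg and DMSO in this order within each. Points are arrays and lines the mean of 2 arrays. UBE2R2 and CKS2 are low on the polysomal IFNg arrays, and VLDLR on the arrays with silvestrol, at 6.62 to 7.24 against 8.70 to 10.18 on the others.

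Silvestrol on top of IFNg asks which transcripts changed when eIF4A was blocked in cells given interferon. In polysomal RNA, 13 chromosome 9 clusters were higher and 3 lower than with IFNg alone, against 1.09% and 0.301% of the whole table, and 8 and 2 of them were bright, where the table had 6.83% and 1.99%. In total RNA, 1 bright cluster was lower and none higher, against 0.0153% and 0.0412% of the table and 0.128% and 0.307% of its bright clusters, and at an unadjusted p below 0.05 limma had 38 lower and 39 higher. Of the 16 polysomal calls, dropping polysomal IFNg replicate 1 left a count of 9, dropping its replicate 2 a count of 4, and dropping either polysomal array with silvestrol a count of 5.

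VLDLR, a lipoprotein and reelin receptor, was lowered by silvestrol in both fractions. The polysomal arrays read 7.24 and 7.24 with IFNg and silvestrol, 9.10 and 10.18 with IFNg, and 9.27 and 9.07 with DMSO. Total RNA gave 6.63 and 6.62 with IFNg and silvestrol, 9.08 and 8.70 with IFNg, and 9.59 and 9.31 with DMSO. The silvestrol arrays lay below all others in each fraction.

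Against IFNg alone VLDLR changed by -2.40 in polysomal RNA (SE 0.32, limma adjusted p = 0.00378), a call that held in every alternative. In total RNA it changed by -2.26 (SE 0.32, adjusted p = 0.0299). That call ended without each of the 4 arrays compared, at 0.267 and 0.213 without total IFNg replicate 1 and 2 and at 0.411 and 0.252 without total replicate 1 and 2 of IFNg with silvestrol. It also ended at 0.0505 without either polysomal DMSO array and at 0.0519 without either polysomal array with silvestrol. Against DMSO, IFNg with silvestrol changed VLDLR by -1.93 in polysomal RNA (adjusted p = 0.0101) and -2.82 in total RNA (adjusted p = 0.000691). The total call held throughout, and the polysomal call ended without any of the 4 arrays compared (0.0562 to 0.0819).

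PCSK5, a proprotein convertase, was the other named cluster lower with silvestrol in polysomal RNA. It measured 7.36 and 6.29 with IFNg and silvestrol, 8.93 and 8.34 with IFNg, and 8.25 and 8.08 with DMSO. Its change against IFNg was -1.81 (SE 0.37, limma adjusted p = 0.0297), which ended without polysomal IFNg replicate 1 or 2 (0.156 and 0.0843) and polysomal replicate 2 with silvestrol (0.176).

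The polysomal rises under silvestrol included clusters named for RNA that is not translated. After RMRP, the unnamed TC0900006699.hg.1 had the largest change, 3.22, at 11.33 and 11.53 with IFNg and silvestrol, 8.55 and 7.87 with IFNg, and 9.55 and 10.53 with DMSO (limma adjusted p = 0.0146). Its call ended without polysomal IFNg replicate 2 (0.129) and without either polysomal array with silvestrol (0.107 and 0.0753). RNU6-1260P, a pseudogene of the spliceosomal U6 RNA with many near-identical copies, measured 7.17 and 5.98 with IFNg and silvestrol, 3.73 and 3.73 with IFNg, and 4.82 and 4.86 with DMSO. Its IFNg and DMSO values lie among levels that cannot be told apart from background, so the size of its change is not firm. Its change against IFNg was 2.84 (SE 0.37, adjusted p = 0.00324) and was called without each array, though which of the copies gave the signal is uncertain.

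DMRTA1, a transcription factor of the DMRT family, measured 6.34 and 6.46 with IFNg and silvestrol in polysomal RNA, against 4.84 and 4.55 with IFNg (1.71, limma adjusted p = 0.0351). With DMSO it measured 6.05 and 5.69, and IFNg with silvestrol lay 0.53 above DMSO, not called. DMRTA1 is a dim cluster, so the sizes of these changes are not firm either. CDC37L1 measured 7.54 and 7.75 with IFNg and silvestrol, against 6.20 and 5.91 with IFNg (1.59, adjusted p = 0.0259). With DMSO it measured 7.31 and 7.53, and IFNg with silvestrol lay 0.22 above DMSO, not called. Both calls ended without any of the 4 arrays compared (0.094 to 0.217 and 0.069 to 0.178). With IFNg against DMSO, 4 of the 13 polysomal rises had been called lower and 1 higher, and both comparisons use the polysomal IFNg arrays. Of the 20 falls with IFNg, 18 had a change above 0 with silvestrol in polysomal RNA and 4 were called. Of the 155 bright chromosome 9 clusters, 97 had a change above 0 there. The 20 were chosen for low polysomal IFNg arrays, and the silvestrol change is measured from those arrays. That choice favours a change above 0, so these counts do not test a reversal.

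IFNg with silvestrol was last set against DMSO. In polysomal RNA, 8 chromosome 9 clusters were higher and 9 lower, against 0.555% and 0.914% of the table, and 5 and 7 of them were bright, where the table had 3.12% and 6.58%. In total RNA, 7 were higher and 4 lower, against 0.534% and 0.179%, and 5 and 4 were bright, where the table had 3.23% and 1.33%. The 17 polysomal calls fell to a count of 4 when replicate 1 of IFNg with silvestrol was dropped and 11 when replicate 2 was, and to 8 and 3 when DMSO replicate 1 or 2 was. For the 11 total calls, dropping replicate 1 or 2 of IFNg with silvestrol left 4 or 6, and dropping DMSO replicate 1 or 2 left 5 or 7.

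ALDH1B1, a mitochondrial aldehyde dehydrogenase, was lower in both fractions. In polysomal RNA it measured 9.65 and 10.17 with IFNg and silvestrol, 11.22 and 11.21 with IFNg, and 12.58 and 12 with DMSO. Total RNA gave 9.26 and 9.25 with IFNg and silvestrol, 11 and 10.01 with IFNg, and 11.61 and 11.32 with DMSO. The groups stood in this order without overlap. Its change against DMSO was -2.38 in polysomal RNA (SE 0.34, limma adjusted p = 0.00331) and -2.21 in total RNA (SE 0.34, adjusted p = 0.00633). The polysomal call ended without polysomal replicate 1 of IFNg with silvestrol (0.0553). The total call ended without total DMSO replicate 1 (0.0818) and without either total array with silvestrol (0.0717 and 0.0741).

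SMARCA2, an ATPase of the SWI/SNF chromatin remodellers, was also lower in both. It measured 6.12 and 6.78 in polysomal RNA with IFNg and silvestrol and 6.90 and 7.20 in total RNA, against 7.72 and 8.49 in polysomal RNA with DMSO and 9.01 and 9.21 in total RNA. With IFNg alone it measured 6.90 and 7.55 in polysomal RNA and 8.24 and 8.31 in total RNA. The changes of IFNg with silvestrol against DMSO were -1.66 (limma adjusted p = 0.027) and -2.06 (adjusted p = 0.00967). The polysomal call ended without polysomal DMSO replicate 2 (0.272) and polysomal replicate 1 with silvestrol (0.244), and the total call without any of the 4 arrays compared (0.0633 to 0.133).

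In total RNA alone SLC1A1, a glutamate transporter, was called lower, at 6.64 and 6.69 with IFNg and silvestrol, against 8.39 and 8.12 with DMSO (-1.59, limma adjusted p = 0.0261). With IFNg alone it lay between them in total RNA, at 7.58 and 7.48. Polysomal RNA gave 7.43 and 7.40 with IFNg and silvestrol, against 8.0 and 7.21 with DMSO, and the groups overlapped. In polysomal RNA alone OSTF1, an SH3-domain protein linked to osteoclasts, was called lower, at 8.26 and 9.43 with IFNg and silvestrol, against 11.36 and 10.61 with DMSO (-2.14, adjusted p = 0.0252). With IFNg alone it measured 8.95 and 9.72 in polysomal RNA, which overlapped the arrays with silvestrol. SLC1A1 was not called without any of the 4 arrays compared (0.0895 to 0.227). OSTF1 was not called without polysomal DMSO replicate 1 or 2 (0.182 and 0.0723) or polysomal replicate 1 with silvestrol (0.242). Whether either change differed between fractions was not tested.

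Polysomal against total RNA of a treatment asks which transcripts were rich or poor on ribosomes. With IFNg and silvestrol, 6 clusters were higher and 12 lower in polysomal RNA, against 0.497% and 0.65% of the table, and 3 and 11 were bright, where the table had 3.12% and 4.25%. With IFNg, 2 were higher and 11 lower, against 0.18% and 1.05%, and 1 and 10 were bright, where the table had 0.82% and 6.52%. With DMSO limma called 0 in either direction, against 0.061% higher and 0.0565% lower in the table and 0.448% and 0.397% of its bright clusters, and 50 were higher and 59 lower at an unadjusted p below 0.05. The 13 calls with IFNg became 2 without total IFNg replicate 2, and 8 and 1 without polysomal IFNg replicate 1 and 2. The 18 with silvestrol became 0 without total replicate 1 or 2 or polysomal replicate 1 of this group, and 9 without polysomal replicate 2. The 0 with DMSO became 1 without polysomal DMSO replicate 1 or either polysomal array with silvestrol.

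The clusters described here for their distribution were chosen after their values were seen. RMRP had the largest difference, with polysomal minus total at -6.86 with IFNg (SE 0.48, limma adjusted p = 0.000201, called without each array). It was -1.68 with IFNg and silvestrol and -1.98 with DMSO, neither called. Of the clusters poor on polysomes with silvestrol, LINC01239, a long noncoding RNA, measured 6.85 and 7.87 in polysomal RNA and 9.62 and 9.99 in total RNA (-2.44, adjusted p = 0.0104). BMS1P13, a pseudogene of a ribosome biogenesis factor, measured 10.55 and 10.92 in polysomal RNA and 12.51 and 12.26 in total RNA (-1.65, adjusted p = 0.0162). With DMSO both also read lower in polysomal RNA without being called, LINC01239 at 7.66 and 7.95 against 8.91 and 8.85. BMS1P13 read 11.09 and 11.07 there, against 12.56 and 11.89 in total RNA. With IFNg alone BMS1P13 was also called lower in polysomal RNA, at 10.55 and 10.34 against 11.80 and 11.77. That call ended with only the arrays compared in the fit (limma adjusted p = 0.109). It also ended with variances that follow intensity (0.0736), with quantile normalization (0.15) and without any of the arrays compared. LINC01239 was not called without total replicate 1 or 2 (0.0852 and 0.118) or polysomal replicate 1 (0.11) of IFNg with silvestrol, and BMS1P13 not without the same 3 arrays (0.139, 0.123 and 0.157).

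Of the clusters rich on polysomes with silvestrol, GRHPR, an enzyme that reduces glyoxylate, was the protein-coding one. It measured 11.89 and 11.54 in polysomal RNA and 9.92 and 10.47 in total RNA with IFNg and silvestrol (1.52, SE 0.32, limma adjusted p = 0.04). With DMSO GRHPR read 11.89 and 11.72 in polysomal RNA, against 11.15 and 10.73 in total RNA. Its call held in 4 of 12 fits that leave out an array. The adjusted p was 0.291 and 0.141 without total replicate 1 and 2 of this group and 0.268 and 0.0816 without polysomal replicate 1 and 2. It was 0.0566 without either polysomal DMSO array and 0.0563 without either polysomal IFNg array. CDC20P1, a pseudogene of the mitotic activator CDC20 that may also detect its parent mRNA, was rich on polysomes with silvestrol (1.45, adjusted p = 0.0419) and with IFNg (1.59, adjusted p = 0.0277). With DMSO its polysomal arrays also read higher, at 13.55 and 12.98 against 12.15 and 11.44 in total RNA, and it was not called there. Leaving out any single array of the groups compared ended either call (0.149 to 0.231 and 0.0518 to 0.22), and leaving out either polysomal IFNg array also ended the silvestrol call (0.0566). ANXA1 passed as poor on polysomes with silvestrol (-1.10, adjusted p = 0.0478) but in none of the 12 fits that leave out an array, where its adjusted p was 0.0563 to 0.292.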

How the data were processed

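The 12 Affymetrix arrays of A375 RNA were assigned by their titles to 6 groups, 2 arrays each. Per the deposited table, the authors gave each cluster 1 intensity per array, not log-transformed. How they corrected background and normalized, and with what software, is not given here. Gene symbols came from the platform's annotation, and clusters with several symbols were left unnamed.

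Log2 of the deposited intensities was taken with no pseudocount and no filter. A mean per group was fitted over all 65535 clusters by lmFit and eBayes of limma 3.58.1 (R 4.3.3; 6 residual degrees of freedom, 6.72 prior), with 11 contrasts and Benjamini-Hochberg adjustment over all clusters, and was tested on simulated data. Intervals are 95% intervals of the fit. Precision is limited by how few arrays there are, with a median standard error of 0.31 for a log2 change and 0.43 for a difference of changes. In fits without an array the lone array left is assumed to vary like the other groups. These fits are less precise, so calls can end in them even where the arrays agree.

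For naming, called clusters whose arrays did not overlap were ranked by change, and the first 10 in each direction of each comparison of treatments were taken, since all involve IFNg. Rows within 10 of each other counted as neighbouring. The members and lists were chosen with earlier results of these data known. Alternatives tried were a block for the replicate number, a fit of the compared arrays alone, variances that are robust and follow intensity, quantile normalization, median centring, clusters at or above the median level, and leaving out each array. Promoter sequences came from RefSeq (GRCh38.p14). Figures were drawn with matplotlib 3.10.9.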

Additional observations from a re-analysis of the deposited data

Results flagged for a closer look

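For the cluster named RMRP, whose strand could not be checked, limma's test of the difference between fractions was passed by both treatment changes. The polysomal minus the total IFNg change was -4.88 on the log2 scale (adjusted p = 0.0105), and the polysomal minus the total silvestrol change was 5.19 (adjusted p = 0.0262). Both use the same IFNg arrays. The first ended without total DMSO replicate 1 (0.0547) or polysomal DMSO replicate 2 (0.082), and the second held in 3 of 12 fits that leave out an array.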

How the results depend on the processing

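With only the arrays compared in the fit, which leaves fewer degrees of freedom, the 26 calls for IFNg in polysomal RNA became 12, the 16 for silvestrol against IFNg in polysomal RNA 7, and the 17 for IFNg with silvestrol against DMSO in polysomal RNA 5. The polysomal against total calls became 2 of 13 with IFNg and 0 of 18 with IFNg and silvestrol, and the single calls for silvestrol in total RNA and for the difference of its changes became 0. The intensity trend gave 17 for IFNg in polysomal RNA, 0 for silvestrol in total RNA and 10 for polysomal against total RNA with IFNg and silvestrol. Quantile normalization gave 14 for IFNg in polysomal RNA, 7 higher and 7 lower against 6 and 20. It also gave 8 higher and 5 lower, against 8 and 9, for IFNg with silvestrol against DMSO in polysomal RNA, and 3 and 8, against 2 and 11, for polysomal against total RNA with IFNg. The cause was not tested.

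Leaving out each array in turn gave 4 to 29 calls for IFNg in polysomal RNA and 4 to 6 in total RNA. For silvestrol against IFNg it gave 4 to 19 in polysomal RNA and 0 to 1 in total RNA. For IFNg with silvestrol against DMSO it gave 3 to 17 in polysomal RNA and 4 to 12 in total RNA. Polysomal against total RNA gave 0 to 19 with IFNg and silvestrol, 1 to 14 with IFNg and 0 to 1 with DMSO, and the differences of changes gave 0 to 2 for IFNg and 0 to 1 for silvestrol.

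Deviations of same-numbered arrays correlated between -0.0702 and 0.21, not above 0.1 in every pair, so the replicate numbers were not taken as pairing the samples, and whether cultures were shared is unknown. With the replicate block the 26 calls became 31 and the 17 became 16. Of the 63 calls of clusters named by the rule, 16 held in every alternative, and none changed direction. Few arrays, no detection call and unstated normalization limit what dim clusters can show. A mean log2 of at least 6 gave 247 clusters in place of the 155 bright ones, and of at least 8 gave 103.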
